A study of Mus musculus with 42 samples.

Results

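Gene expression was compared between striata of PDE10A knockout (KO) and wild-type (WT) mice that had all received an inhibitor of PDE10 (PDE10i). The comparison rests on the 10 arrays titled in this way, 4 KO and 6 WT, of 42 arrays in the series. Both groups were C57BL6 mice, and the tissue was microdissected and snap-frozen. The KO animals are described only as PDE10A KO, and the sources used here do not state which part of the gene was removed, which compound was given, its dose, the time after dosing or the animals' age. The other striatal arrays, 5 WT and 5 KO after vehicle, share the estimate of spread, and 22 hippocampal arrays from the same 4 kinds of animal serve as a second region. Whether each array is a separate animal is not stated, and p-values therefore cover the spread among these samples, part of which may be technical.

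PDE10A is a phosphodiesterase that breaks down cGMP and cAMP, the latter a second messenger by which dopamine receptors act on striatal projection neurons. It is abundant in these neurons, which use GABA and form the direct pathway (dopamine D1 receptor, dynorphin) and the indirect pathway (dopamine D2 receptor, enkephalin). More cAMP activates protein kinase A and transcription factors of the CREB family, and an inhibitor of the enzyme can raise cAMP only where the enzyme is present. The design therefore asks here what separates treated tissue labelled as having its drug target from treated tissue labelled as lacking it.

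Pde10a itself (chromosome 17) gave overlapping signals in the arrays labelled KO and WT. Its log2 signal was 12.20, 12.99, 12.39 and 12.08 in KO arrays 34, 35, 37 and 39, and 12.02, 12.54, 12.43, 12.68, 12.56 and 12.70 in WT arrays 10 to 15. The KO minus WT difference was -0.07 ± 0.17 (SE, limma adjusted p = 0.937), and 0.08 (adjusted p = 0.919) without WT 13 to 15 and KO vehicle 25. Over its 5 probe sets the differences lay between -0.44 and 0.13. Since a probe set can lie outside what was removed, Pde10a does not check the labels.

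Other genes of chromosome 17, which can be inherited together with a modified allele, gave a different view of single arrays. A score was built from 15 such genes, Pde10a excluded, chosen in hippocampus for their difference with the genotype label. All hippocampal arrays entered this choice. Of the 15, Tmem181a alone had a limma adjusted p under 0.05 there (0.0303), and the others lay between 0.0837 and 0.216. The score was scaled in striatum to 0 at the median WT vehicle array and 1 at the median KO inhibitor array. The 4 KO inhibitor arrays scored 0.918, 0.950, 1.05 and 1.11. WT arrays 10, 11 and 12 scored 0.123, 0.0634 and 0.0278, whereas WT arrays 13, 14 and 15 scored 0.589, 0.787 and 0.541. Among the vehicle arrays that supply the spread, KO 25 scored 0.0982. These 4 striatal arrays fall across 0.5 from their own label's group, the labels were kept as given, and results below are given with all arrays and without these 4. The choice to leave them out was made after their values were seen, so counts made without them describe the 7 remaining arrays (4 KO, 3 WT). Hippocampal arrays were scored in the same way with 15 genes chosen in striatum. There KO vehicle 25 and 26 (-0.00159 and 0.106) and WT inhibitor 12 and 14 (1.04 and 0.790) fell across 0.5 from their label's group. These were the doubted hippocampal arrays. Hippocampal WT inhibitor 13 and 15 lay on the WT side (0.227 and 0.0199).

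**Figure D1:**
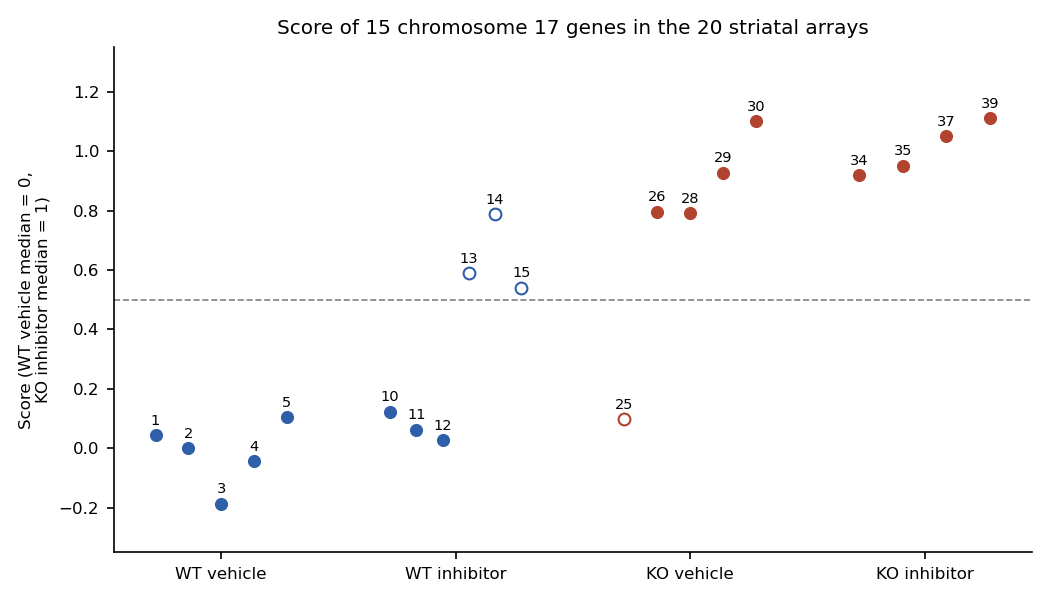
Score of 15 chromosome 17 genes (y axis, no unit) in each of the 20 striatal arrays, by group, with array numbers. Open symbols mark the 4 arrays across 0.5 (dashed line) from the rest of their genotype: WT inhibitor 13, 14 and 15 at 0.589, 0.787 and 0.541, and KO vehicle 25 at 0.0982.

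With all 10 arrays no gene separated the genotypes past the threshold. None of 18193 genes (percent called 0) had an adjusted p under 0.05 in limma's fit, and the smallest was 0.156. At an unadjusted p under 0.05 there were 2216 genes (12.2%), 977 higher in KO (5.37%) and 1239 lower (6.81%). The KO and WT values did not overlap for 384 genes (2.11%), 125 higher in KO (0.687%) and 259 lower (1.42%). On simulated data with the same layout the fit found 72% of differences of 0.5 on the log2 scale and 96.5% of differences of 1. The simulated noise was independent for each gene and array. It held no differences shared by many genes of an array, so these shares do not give the power in the real arrays. Leaving out a single array gave 0 or 1 gene, except that 187 genes passed without KO 35 (152 higher). Weighting arrays by their noise gave 1027 genes (617 higher).

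Without the 4 arrays, 1187 genes passed (6.52%), 413 higher in KO (2.27%) and 774 lower (4.25%). All 1187 had the same sign with all arrays, 939 of them at an unadjusted p under 0.05, and for 190 the KO and WT values did not overlap over all 10 arrays. Where a gene below is said to pass and given in the second fit alone, it therefore had the same sign with all arrays and did not pass there. The 7 arrays compared in the second fit are among the 10, so this agreement is a description and lends no support. Since the 1187 genes were called for a distance between KO and WT 10 to 12, the place of the left-out WT arrays on them is a description. For 681 genes all 3 left-out arrays lay on the WT side of the KO mean, for 415 genes 2 did, for 84 genes 1 and for 7 genes none. With the KO mean set to 0 and the mean of WT 10 to 12 set to 1, the median position over the 1187 genes was 0.343 for WT 13, 0.132 for WT 14 and 0.456 for WT 15. The count moved with single arrays, to 555 without WT 11 and 582 without WT 12, of which 541 and 570 were among the 1187, and to 1404 (658 higher, 746 lower) without KO 35, 1012 of them among the 1187. With KO vehicle 25 kept, 627 genes passed, and 601 passed when the 7 arrays were fitted alone.

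Neurotensin had the largest difference without the 4 arrays. Nts, which codes for a neuropeptide made in a subset of striatal neurons, was at log2 5.94, 6.24, 6.15 and 6.59 in KO. It was at 9.94, 10.32 and 10.55 in WT 10, 11 and 12 and at 8.27, 7.32 and 9.60 in WT 13, 14 and 15. Every KO value lay below every WT value, and WT 14 was the WT array nearest to KO. The KO minus WT difference was -3.10 ± 0.69 (SE, adjusted p = 0.173) with all arrays and -4.04 ± 0.26 (adjusted p = 9.96e-08) without the 4. The WT vehicle arrays ran from 6.34 to 7.65, a range that includes KO 39, while the other KO inhibitor values lay below it. In hippocampus under inhibitor the genotypes differed by 0.31 ± 0.20 (adjusted p = 0.46).

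Several other genes followed the order of Nts over the 10 arrays, with WT 10 to 12 high, WT 14 at or near KO, and WT 13 and 15 between. Snx31, a sorting nexin, was at 4.24, 4.44, 4.20 and 4.15 in KO, at 7.16, 6.68 and 6.85 in WT 10 to 12 and at 6.40, 4.47 and 5.69 in WT 13 to 15. Its difference was -1.95 ± 0.51 (adjusted p = 0.183) and -2.64 ± 0.16 (adjusted p = 9.82e-08) without the 4 arrays. Rgs4, which speeds the switching off of Gi- and Gq-coupled receptor signals, was at 11.20, 10.76, 10.81 and 10.94 in KO and 12.86, 13.28, 13.21, 12.41, 10.64 and 12.30 in WT 10 to 15. WT 14 was below all KO arrays for Rgs4, so the groups overlapped in that array. The Rgs4 difference was -1.52 ± 0.46 (adjusted p = 0.195), and -2.19 ± 0.13 (adjusted p = 9.42e-08) without the 4 arrays, with the same sign at its other 2 probe sets. Abi3bp, Lgi2, Gpr153 (an orphan receptor), Strip2, Rerg, Acvr1c (an activin-type receptor), Klhl14 and Onecut2 (a transcription factor) completed the 12 largest negative differences with Ighm, between -2.41 and -1.85 without the 4 arrays. Ighm, an immunoglobulin heavy chain gene, was among them at -2.14 ± 0.58, and its 11 probe sets gave differences of either sign.

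Irak3, an inhibitor of Toll-like receptor signals, was among the 6 genes with the smallest p-values on the lower side with all arrays. It was at 4.25, 4.84, 5.07 and 4.54 in KO, at 6.38, 6.24 and 6.50 in WT 10 to 12 and at 5.79, 4.83 and 5.66 in WT 13 to 15. The difference was -1.23 ± 0.27 (adjusted p = 0.173), and -1.70 ± 0.16 (adjusted p = 5.94e-06) without the 4 arrays, while its dimmer second probe set gave -0.12 with all arrays. Rfx4, a transcription factor, was at 7.37, 7.44, 7.30 and 7.51 in KO and between 7.81 and 8.23 in WT with a median of 7.98, without overlap (-0.59 ± 0.11, adjusted p = 0.156), while its dimmer second probe set gave a difference near 0 (-0.02 ± 0.10 without the 4 arrays). Bag3, a co-chaperone (-0.33 ± 0.06), Smtn, the muscle protein smoothelin (-0.49 ± 0.10), the antisense gene Sp3os (-0.36 ± 0.08) and Zfp516 (-0.54 ± 0.12) complete these 6. None of the 6 passed with all arrays, and each passed without the 4.

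**Figure D2:**
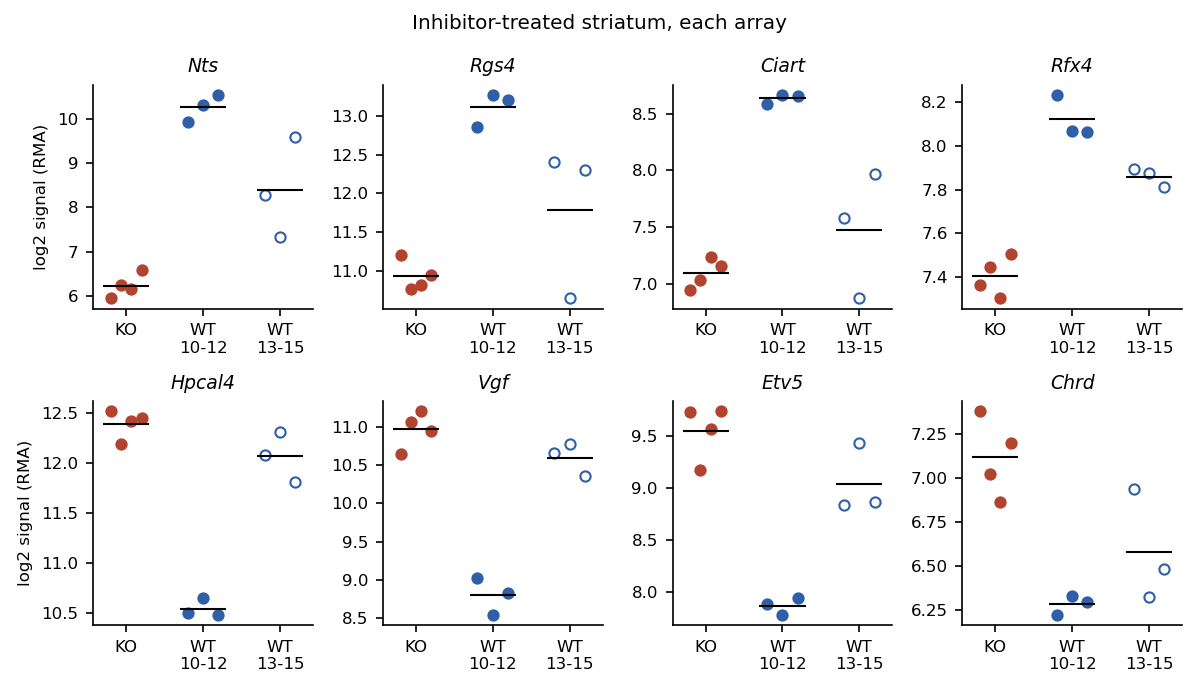
Log2 signal (RMA, y axis) of 8 genes in inhibitor-treated striatum, 1 point per array, in KO (4 arrays), WT 10 to 12 and WT 13 to 15 (open symbols), with lines at the means. For Nts the KO arrays lie at 5.94 to 6.59 and all WT arrays above; for Hpcal4 WT 10 to 12 lie at 10.48 to 10.65 and the other 7 arrays at 11.81 to 12.52.

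On the other side, the 6 smallest p-values with all arrays belonged to Chrd, Ccn2, Mup5, Nppc, Kalrn and Hivep2, each with an adjusted p of 0.156. Chrd, which codes for chordin, an extracellular antagonist of bone morphogenetic proteins, was at 7.38, 7.03, 6.87 and 7.20 in KO and at 6.22, 6.33, 6.29, 6.94, 6.32 and 6.48 in WT 10 to 15. WT 13 alone reached the KO range. The difference was 0.69 ± 0.13, and 0.84 ± 0.13 (adjusted p = 0.000794) without the 4 arrays. Ccn2, a matricellular growth factor, was at 9.85, 8.10, 9.39 and 9.42 in KO and 5.98, 7.33, 7.45, 7.19, 5.58 and 6.60 in WT, without overlap (2.50 ± 0.50). Nppc, C-type natriuretic peptide, differed by 0.54 ± 0.11, Kalrn, a guanine nucleotide exchange factor of dendritic spines, by 0.84 at its brightest probe set and by 0.01 to 0.51 at the other 7 with all arrays, and Hivep2, a zinc finger factor, by 0.48 ± 0.10.

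Cartpt had the largest positive difference without the 4 arrays. This precursor of the peptide CART was at 8.57, 8.36, 8.96 and 8.92 in KO, at 6.00, 5.50 and 5.02 in WT 10 to 12 and between 7.83 and 8.83 in WT 13 to 15. Its difference was 1.84 ± 0.66 (adjusted p = 0.249) with all arrays and 3.20 ± 0.36 (adjusted p = 4.34e-05) without the 4. Ryr1, a calcium release channel, differed by 3.16 ± 0.27 without the 4 arrays, with WT 10 to 12 at 6.60, 6.61 and 6.18, WT 13 to 15 at 9.33, 9.93 and 9.08 and KO between 8.80 and 10.12. Hpcal4, a neuronal calcium sensor, was at 12.52, 12.19, 12.41 and 12.45 in KO and at 10.50, 10.65, 10.48, 12.08, 12.31 and 11.81 in WT. For both Ryr1 and Hpcal4 WT 13 to 15 thus lay at or near KO and far from WT 10 to 12. The Hpcal4 difference was 1.09 ± 0.32 (adjusted p = 0.195), and 1.85 ± 0.11 (adjusted p = 9.42e-08) without the 4 arrays. Car10, Nr4a1, Vgf, Hspa1b, Spred3, Etv5, Agtr1a (the angiotensin receptor) and Fxyd7, with Ccn2, made up the rest of the 12, between 1.60 and 2.44.

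The sequences before 3 of these genes are shown because Nts and Cartpt had the largest negative and positive difference, and because Ciart, below, led the clock genes. Each is the 250 bases before the RefSeq start (GRCm38.p6), written 5′ to 3′ on the gene's strand, with motif matches in capitals. The motifs searched on both strands were the cAMP response element TGACGTCA, the E-box CACGTG that clock proteins bind, and TGACATCA, a variant of the first with 1 base changed that was added after the Nts sequence had been read.
Nts, chr10:102490419-102490668, minus strand: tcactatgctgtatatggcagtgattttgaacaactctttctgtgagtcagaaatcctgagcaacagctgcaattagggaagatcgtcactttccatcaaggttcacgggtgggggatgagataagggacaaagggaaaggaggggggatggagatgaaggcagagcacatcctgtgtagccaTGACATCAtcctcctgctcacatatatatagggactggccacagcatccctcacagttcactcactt
Cartpt, chr13:99900684-99900933, minus strand: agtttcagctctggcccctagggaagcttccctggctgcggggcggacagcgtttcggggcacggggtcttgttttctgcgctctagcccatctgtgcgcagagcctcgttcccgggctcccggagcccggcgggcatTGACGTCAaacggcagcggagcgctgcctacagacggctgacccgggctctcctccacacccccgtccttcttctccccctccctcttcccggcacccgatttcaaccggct
Ciart, chr3:95882229-95882478, minus strand: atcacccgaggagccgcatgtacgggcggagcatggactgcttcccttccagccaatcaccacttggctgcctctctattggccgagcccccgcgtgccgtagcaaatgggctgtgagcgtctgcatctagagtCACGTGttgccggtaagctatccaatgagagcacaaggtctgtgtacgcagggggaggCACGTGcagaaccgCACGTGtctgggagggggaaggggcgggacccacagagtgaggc

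The Nts window held the variant 67 bases before the start, the Cartpt window the full element at 112 bases, and the Ciart window E-boxes at 116, 58 and 44 bases. Of 18006 such windows of 14367 tested genes, 2.13% held TGACGTCA, 2.18% TGACATCA or its reverse complement and 7.39% CACGTG. Among windows of genes called without the 4 arrays, TGACGTCA was in 3.30% of 455 for genes higher in KO and in 1.41% of 850 for genes lower in KO, CACGTG in 6.15% and 10.0%, and TGACATCA in 2.42% and 1.41%. These are matches of letters, not measured binding.

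Early response genes, which neuronal activity induces quickly, differed in both directions, more of them higher in KO. Of 30 measured, 24 had a positive difference with all arrays (46.5% of all genes did), 12 were higher and 3 lower at an unadjusted p under 0.05 (5.37% and 6.81% of all genes), and the median was 0.24 (all genes -0.01). Without the 4 arrays 12 passed as higher and 3 as lower (2.27% and 4.25% of all genes). Nr4a1, a nuclear receptor, was at 10.19, 10.44, 10.11 and 10.16 in KO and 7.74, 7.91, 8.27, 9.49, 10.00 and 10.37 in WT. The Nr4a1 difference was 1.26 ± 0.51 (adjusted p = 0.312), and 2.25 ± 0.21 (adjusted p = 6.51e-06) without the 4. Egr1, a zinc finger transcription factor, was at 12.10 to 12.18 in KO and 10.87 to 11.94 in WT with a median of 11.38, without overlap. Fos (1.32 ± 0.36), Fosl2 (1.03 ± 0.27), Egr2, Egr4, Arc (1.03 ± 0.24), Ier3, Dusp1, Dusp6, Homer1 and Cebpb were the others higher without the 4 arrays. Jun (-0.49 ± 0.12), Gadd45b (-1.08 ± 0.10) and Gadd45g (-0.84 ± 0.14) were the 3 lower.

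Genes that are induced by the kinase ERK and restrain it had positive differences. With all arrays 11 of 12 had a positive difference, with a median of 0.37 and 5 at an unadjusted p under 0.05. All 12 were positive without the 4 arrays (49.3% of all genes were), with a median of 0.64. Of these, 6 passed (2.27% of all genes passed as higher), namely Etv5, Dusp6, Spred2, Spred1, Dusp1 and Spry2. Etv5, an ETS transcription factor, was at 9.74, 9.18, 9.57 and 9.74 in KO and 7.88, 7.77, 7.93, 8.83, 9.43 and 8.87 in WT. WT 14 alone reached the KO range (1.10 ± 0.32, adjusted p = 0.191; without the 4 arrays 1.69 ± 0.18, adjusted p = 2.74e-05). Dusp6, an ERK phosphatase, was at 8.85 to 9.30 in KO and 7.74 to 8.76 in WT, without overlap. The adaptor inhibitors Spred1 and Spred2 differed by 0.88 ± 0.10 and 0.94 ± 0.10 without the 4 arrays.

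Neuropeptides and granins went both ways. Of 20 measured, 14 were positive with all arrays and the median was 0.28, with 8 higher and 1 lower at an unadjusted p under 0.05 (5.37% and 6.81% of all genes). Without the 4 arrays Cartpt, Vgf, Chgb, Scg2 and Npy passed as higher and Nts and Chga as lower (2.27% and 4.25% of all genes). Vgf, a secreted neuropeptide precursor, was at 10.65, 11.07, 11.21 and 10.95 in KO, at 9.02, 8.54 and 8.82 in WT 10 to 12 and at 10.66, 10.77 and 10.35 in WT 13 to 15. Its difference was 1.28 ± 0.47 (adjusted p = 0.261) and 2.18 ± 0.15 (adjusted p = 3.17e-07) without the 4. Pdyn, from which dynorphin is made, was at 9.08 to 9.55 in KO and 8.42 to 9.25 in WT (0.46 ± 0.19, adjusted p = 0.334; without the 4 arrays 0.62 ± 0.18, adjusted p = 0.0504). Penk, the enkephalin precursor, was at 13.13 to 13.73 in KO and 13.64 to 13.79 in WT (-0.19 ± 0.11).

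Genes of the circadian clock differed in both directions. With all arrays 5 of 16 were lower and 1 higher at an unadjusted p under 0.05 (6.81% and 5.37% of all genes), and the median was -0.06. Ciart, a repressor within the clock, was at 6.95, 7.03, 7.24 and 7.16 in KO, at 8.58, 8.67 and 8.66 in WT 10 to 12 and at 7.58, 6.88 and 7.96 in WT 13 to 15. WT 14 fell below the KO arrays (-0.96 ± 0.31, adjusted p = 0.215; without the 4 arrays -1.54 ± 0.12, adjusted p = 1.43e-06). Per3, Dbp and Tef, whose promoters clock proteins drive, also passed as lower without the 4 arrays (-0.65, -0.65 and -0.46), where 4.25% of all genes did. Arntl, the activating partner of the clock (BMAL1), was higher there (0.90 ± 0.11, adjusted p = 0.000104), at 8.23 to 8.55 in KO and 7.47, 7.52 and 7.64 in WT 10 to 12. The hour of dissection is not stated in the sources used here.

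Genes that define striatal projection neurons had high signals in all 10 arrays, and 22 of 25 shared by both pathways had a negative difference. Ppp1r1b, which codes for DARPP-32, lay between 11.66 and 12.94, Drd1 between 10.98 and 11.82 and Drd2 between 9.90 and 11.14. Of the 22, 11 had an unadjusted p under 0.05 with all arrays (6.81% of all genes were lower at that p), and the median of the 25 was -0.30. In the fit without the 4 arrays 5 passed as lower (4.25% of all genes), namely Strip2, Actn2, Rarb, Pde2a and Arpp19. Rgs14 passed as higher (1.08 ± 0.13). None of 9 direct pathway genes passed and 1 of 7 indirect pathway genes did (Plxdc1, higher), with medians of -0.24 and -0.18. Fewer cells of a type and less RNA per cell cannot be told apart in tissue.

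Markers of glutamatergic neurons, which the striatum lacks and the adjoining cortex holds, differed in the opposite direction. All 9 glutamatergic markers had a positive difference (median 1.21 with all arrays), and their mean was 9.38, 6.75, 8.10 and 8.79 in KO 34, 35, 37 and 39. In WT 10 to 15 it was 6.41, 7.17, 6.75, 8.03, 6.75 and 6.83, so KO 34, 37 and 39 and WT 13 stood above the rest. Slc17a7, the vesicular glutamate transporter of cortex, ran from 6.30 to 10.76, Neurod6 from 3.19 to 8.85 and Tbr1 from 4.33 to 8.70. KO 34 was lowest for Ppp1r1b, Drd2 and Penk and highest for all 3 of these. With the glutamatergic mean as a covariate in the fit without the 4 arrays, the median of the shared projection neuron genes became 0.04. Of these 25 genes 6 were higher and 3 lower, the 3 near the share of all genes with the covariate. Of the genes named above, Nts (-4.21 ± 0.31), Hpcal4 (1.69 ± 0.11), Rgs4 (-2.31 ± 0.15), Ciart (-1.52 ± 0.15) and Etv5 (1.29 ± 0.15) passed in that fit as well. Of 125 named genes and list members called without the covariate, all had the same sign with it, 95 passed and 30 did not. Among the leading genes these were Ccn2 (0.85 ± 0.43, adjusted p = 0.199), Car10 (0.73 ± 0.28, adjusted p = 0.0914), Bag3 (-0.23 ± 0.08, adjusted p = 0.0744) and Sp3os (-0.28 ± 0.11, adjusted p = 0.113). Among list members they were Fos, Fosl2, Egr2, Arc, Ier3 and Dusp1 of the early response genes, Scg2 and Npy of the neuropeptides, Dbp of the clock, Rarb and Actn2 of the projection neuron genes, Gad1 and Maoa, Pde4d and Prkg1, Kcnj6 and Kcnj10, Zbtb16 and Ddit4, Hspa1b, Abcc9, Ndufa1, Ndufv3, Cox6b1 and Atp5e of the respiratory chain, and Neurod2, the only glutamatergic marker called without the covariate. Neurod2 is among the 9 markers averaged into the covariate, so its loss there was built in. In all, 2327 of 18193 genes passed with the covariate, 734 higher and 1593 lower, and 808 of the 2327 were among the 1187. Of the lists described here, 7 of 30 early response genes were higher and 3 lower with it, the 3 near the share of all genes. Of 12 ERK feedback genes 6 were higher, and of 16 circadian clock genes 2 were higher and 5 lower. Of 12 endothelial and pericyte genes 7 were lower, of 70 oxidative phosphorylation genes 38, of 16 cholesterol synthesis genes 8 and of 14 cyclase and Golf genes 5. Neuropeptides had 4 higher and 3 lower of 20, and RGS proteins 4 and 2 of 14. Potassium channels had 1 higher and 4 lower of 22, and glutamate and GABA-A receptor subunits 2 and 3 of 20. Of 17 GABA, acetylcholine and monoamine genes 2 were lower, near the share of all genes with the covariate.

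**Figure D3:**
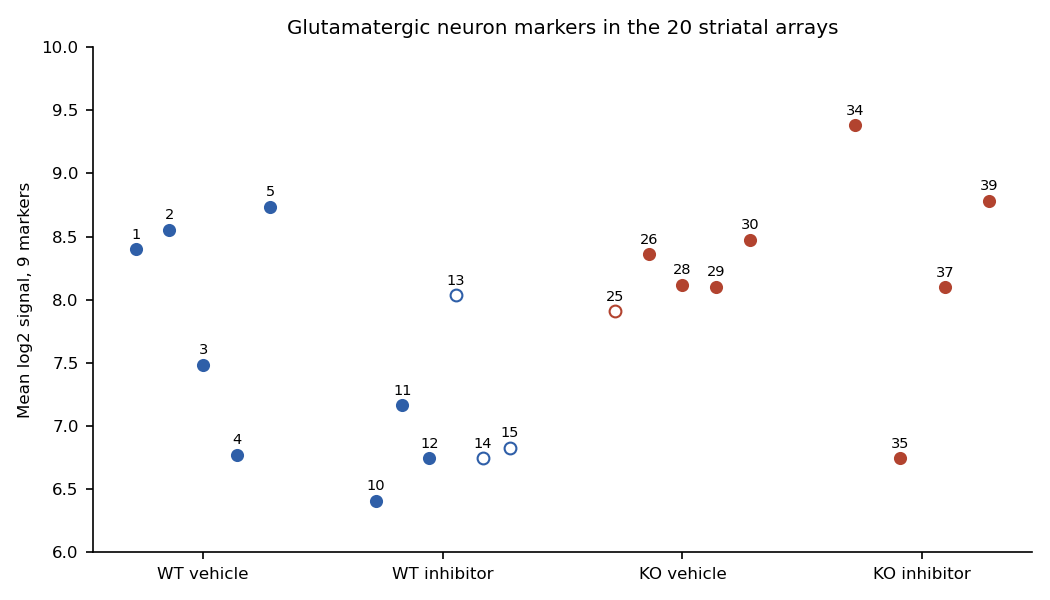
Mean log2 signal of 9 glutamatergic neuron markers (y axis) in each of the 20 striatal arrays, by group, with array numbers and open symbols for the 4 arrays left out in part. Under inhibitor KO 34, 37 and 39 lie at 9.38, 8.10 and 8.79 and KO 35 at 6.75, against 6.41 to 8.03 in WT.

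GABA handling genes were lower where they passed. Of 17 genes for GABA, acetylcholine and monoamine handling, 13 had a negative difference with all arrays (53.5% of all genes did), 7 of them at an unadjusted p under 0.05 (6.81% of all genes). Slc32a1, the vesicular GABA transporter, was at 10.07, 10.62, 10.59 and 10.43 in KO and at 10.70 to 11.09 in WT with a median of 10.98, without overlap (-0.50 ± 0.11, adjusted p = 0.173; without the 4 arrays -0.62 ± 0.12, adjusted p = 0.00465). Gad1, Ache (acetylcholinesterase) and Maoa (monoamine oxidase A) were also lower without the 4, where 4.25% of all genes passed as lower. Of these Gad1 (adjusted p = 0.186) and Maoa (adjusted p = 0.0787) did not pass with the glutamatergic covariate. Gad2, which makes GABA at terminals, was lower in every KO array than in every WT array (-0.44 ± 0.13) but did not pass in either fit.

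Without the glutamatergic covariate, cyclic nucleotide genes differed little as groups. With it 5 of 14 cyclase and Golf genes were lower, against 1593 of all 18193 genes. Among all genes 2.27% passed as higher and 4.25% as lower without the 4 arrays. Of 18 other phosphodiesterases, without the 4 arrays Pde4d was higher (0.50 ± 0.12), Pde2a, abundant in projection neurons, lower (-0.56 ± 0.11), and Pde6d lower (-0.34 ± 0.08). Of 14 cyclase and Golf genes, Gucy1a1, a subunit of the nitric oxide receptor that makes cGMP, was at 10.90, 11.23, 11.19 and 10.98 in KO and between 11.35 and 11.92 in WT, without overlap (-0.60 ± 0.18; without the 4 arrays -0.80 ± 0.12). Adcy3 was lower as well (-0.47 ± 0.09). Of 14 protein kinase A subunits and phosphatase 1 inhibitors, Prkacb, a catalytic subunit (-0.47 ± 0.06), and Ppp1r2 (-0.64 ± 0.11) were lower and Prkg1, the cGMP-dependent kinase, higher (0.57 ± 0.16). Medians of the 3 lists lay between -0.13 and 0.04. None of 10 calcium and calmodulin kinase genes passed, although Camkk2 did not overlap between groups (0.39 ± 0.12).

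Potassium channels split by member. Among all genes 2.27% passed as higher and 4.25% as lower without the 4 arrays. Of 22, Kcna2 (0.84 ± 0.11) and Kcnj6 (0.57 ± 0.14) were higher and Kcnj4 (-0.97 ± 0.14), Kcna1 (-0.75 ± 0.10), Kcnj10 and Kcns2 lower without the 4 arrays, with a median of 0.01. Kcna1 and Kcna2 are related voltage-gated subunits, and Kcna2 did not overlap between groups over all 10 arrays (10.13 to 10.41 in KO, 9.30 to 10.05 in WT). Gria3 (0.51 ± 0.09) alone passed among 20 glutamate and GABA-A receptor subunits. Of 14 RGS proteins, Rgs4 and Rgs5 were lower and Rgs10 (0.74 ± 0.13) and Rgs14 higher. Npy alone passed among 13 interneuron genes. For the receptor and interneuron lists this is near the share of all genes (6.52%), and nothing is read from it.

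Genes of oxidative phosphorylation had small negative differences, and 19 of 70 passed in the fit without the 4 arrays. Of 70 nuclear genes of the respiratory chain, 64 had a negative difference with all arrays (53.5% of all genes did), 23 of them at an unadjusted p under 0.05 (6.81% of all genes) and none on the other side, with a median of -0.14. Without the 4 arrays 19 were lower (4.25% of all genes) and none higher, with a median of -0.22. Atp5j2, a subunit of ATP synthase, was at 12.06 to 12.19 in KO and 12.23 to 12.45 in WT, without overlap. Uqcr11 (-0.41 ± 0.06), Atp5g1 (-0.45 ± 0.07) and Cox7c (-0.57 ± 0.10) are further examples. Their mean over the list was 11.30 to 11.40 in KO and 11.36 to 11.59 in WT. None of 29 cytosolic ribosomal protein genes passed.

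Blood vessel genes had negative differences as well. This held for all 12 endothelial and pericyte markers with all arrays (53.5% of all genes, median -0.26), and 7 passed without the 4 arrays (4.25% of all genes, median -0.49). Kdr, the main receptor for vascular endothelial growth factor, was at 7.21, 7.59, 7.36 and 7.28 in KO and at 7.91 to 8.03 in WT 10 to 12 and 7.48, 7.30 and 7.63 in WT 13 to 15. Cldn5, Esam, Slco1a4, Tek and, for pericytes, Rgs5 (-0.73 ± 0.10) and Abcc9 were the others. The mean over the list was 7.98 to 8.11 in KO, 8.50 to 8.56 in WT 10 to 12 and as low as 8.02 in WT 13 to 15. Of 16 genes of cholesterol synthesis 3 were lower without the 4 arrays (Mvd, Dhcr7 and Msmo1). Of 12 glucocorticoid-responsive genes Zbtb16 was higher (0.88 ± 0.23) and Cdkn1a and Ddit4 lower. Among all genes 2.27% passed as higher there and 4.25% as lower. Of 18 heat shock and endoplasmic reticulum chaperones Hspa1b alone passed (2.02 ± 0.53), with KO at 8.35 to 9.51 and WT spread from 6.29 to 8.91.

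**Figure D4:**
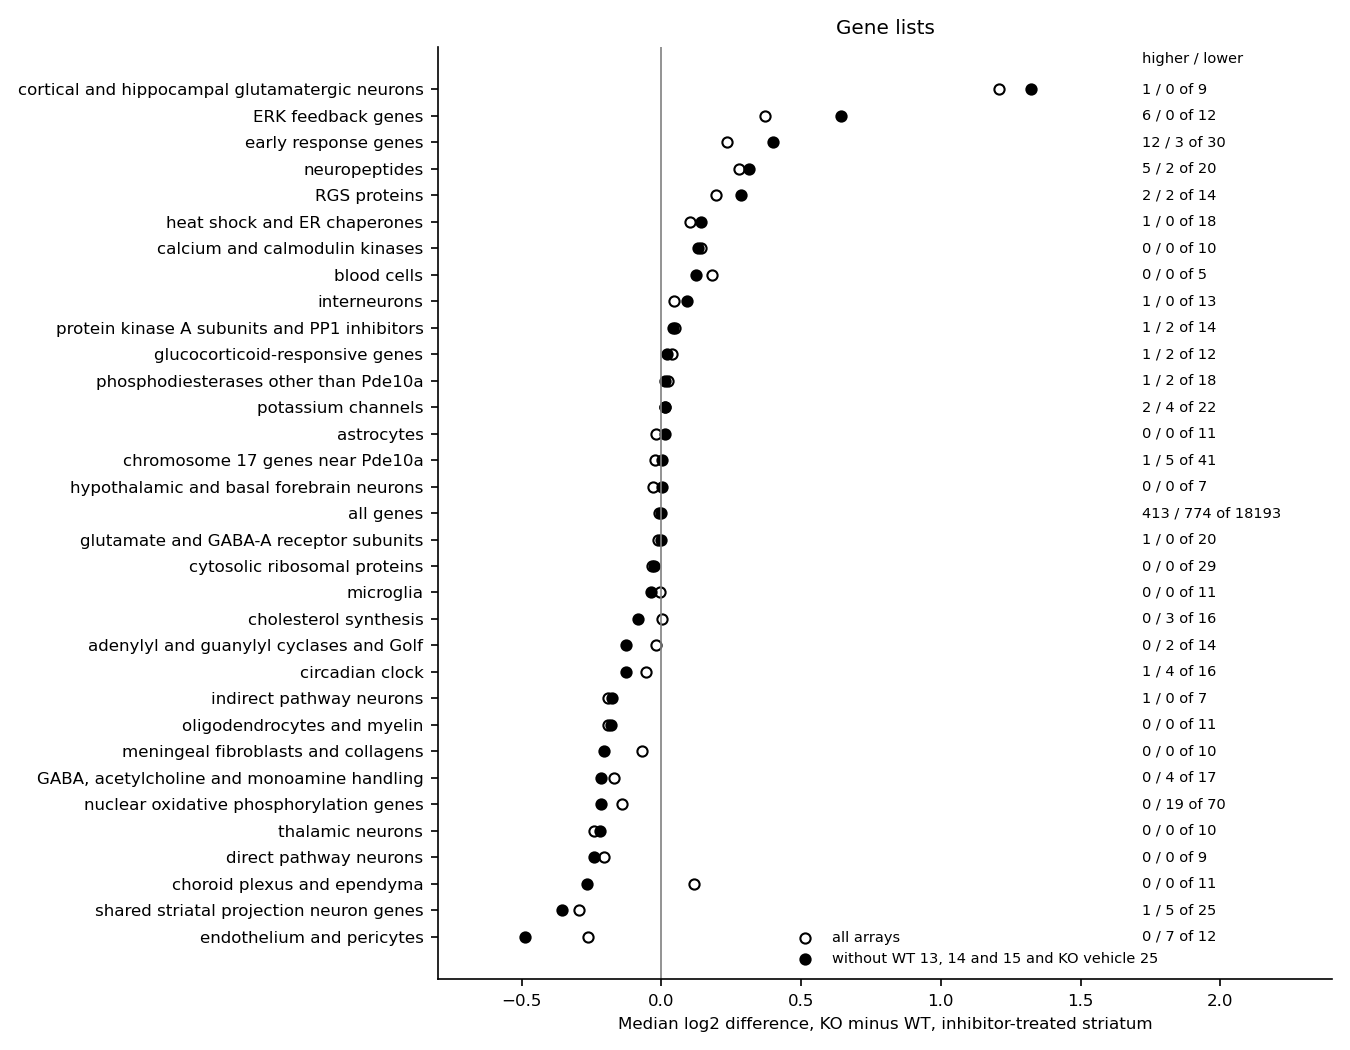
Median log2 difference, KO minus WT in inhibitor-treated striatum (x axis), of each gene list, with all arrays (open) and without WT 13 to 15 and KO vehicle 25 (filled). Numbers at the right give the genes higher and lower at an adjusted p under 0.05 without these arrays and the genes measured: 6 and 0 of 12 for ERK feedback genes, 0 and 19 of 70 for oxidative phosphorylation.

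Markers of other cells set single arrays apart. No gene passed among 11 markers each of astrocytes, oligodendrocytes, microglia and choroid plexus or among 10 of meningeal fibroblasts, 5 of blood cells, 10 of thalamic and 7 of hypothalamic neurons, in either fit, nor among 4 sex-linked genes. The choroid plexus mean was 8.74 in WT 11 and 8.42 in KO 35, against 5.39 as the lowest array. The thalamic neuron mean was 7.52, 7.44 and 7.24 in WT 10, 14 and 15, against 6.56 to 6.98 in the other arrays. The blood cell mean was 6.74 in KO 35, where S100a8, a granulocyte protein, was at 8.01 against 4.33 to 5.34 in the other 9 arrays. The log2 signal of a 3′ Gapdh control minus a 5′ one, which grows as RNA is shortened, was 0.674 in KO 35 and 0.657 in WT 13 and 0.142 to 0.445 in the other arrays. With this Gapdh difference as a covariate in the fit without the 4 arrays 1817 genes passed.

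Genes of chromosome 17 were counted among the leading genes. Of 98 genes at an unadjusted p under 0.001 with all arrays, 6 lay on chromosome 17 (6.12%, against 4.58% of genes tested), and of the 1187 genes 63 (5.31%), where the choice of arrays favours them. Of 41 genes near Pde10a, without the 4 arrays Tmem181a was higher and Prr18, Zfp40, Tiam2, Mpc1 and Sod2 lower. Among all genes 2.27% passed as higher there and 4.25% as lower. Prr18 was at 8.86, 9.27, 9.11 and 8.87 in KO and between 9.37 and 10.03 in WT, Zfp40 at 6.81 to 7.05 in KO and 7.06 to 7.68 in WT, and Tmem181a at 11.19 to 11.63 in KO and 10.57 to 11.16 in WT. None of the 3 overlapped between groups. The differences were -0.67 ± 0.15, -0.46 ± 0.11 and 0.53 ± 0.14.

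These 3 genes are among the 15 of the chromosome 17 score, which chose them for their difference in hippocampus and chose the arrays left out, so neither their hippocampal values nor their calls without the 4 arrays are independent of that choice. The vehicle genotype difference in striatum rests on other arrays, and there with all of them Prr18 was -0.61 ± 0.15, Zfp40 -0.76 ± 0.11 and Tmem181a 0.49 ± 0.13. The hippocampal vehicle arrays entered the choice of the 15 genes and share array numbers with the striatal ones. Whether a number marks an animal is not stated, so these values may not be independent of the choice either. Nts, Hpcal4 and Ciart differed in hippocampus under inhibitor by 0.31 ± 0.20, 0.03 ± 0.06 and 0.05 ± 0.08. They were named for their striatal difference, which a difference between regions contains, so its p-values for them are a description. Their striatum minus hippocampus differences were -3.41 ± 0.72 (adjusted p = 0.0504), 1.06 ± 0.33 (adjusted p = 0.134) and -1.01 ± 0.32 (adjusted p = 0.144), and -4.37 ± 0.37 (adjusted p = 3.17e-09), 1.83 ± 0.12 (adjusted p = 2.32e-11) and -1.58 ± 0.15 (adjusted p = 1.88e-08) without the doubted arrays of both regions. Over all genes none passed this test with all arrays (0%, smallest adjusted p 0.0504) and 1090 passed without those arrays (5.99%). In hippocampus alone 1 gene passed (0.0055%), and 10 without them (0.055%).

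Under vehicle 25 genes separated the genotypes in striatum (0.137%), and 145 without KO 25 and the other 3 arrays (0.797%). Of the 145, 94 (64.8%) were also among the 1187 genes under inhibitor (7.92% of these). The direction was shared for 93, of which 45 were higher and 48 lower, and opposite for Rasgef1c. The 2 comparisons share no compared array but share the estimate of spread. Over 18193 genes, not independent of each other, the 2 differences correlated with r = 0.254 (rho = 0.137), and with r = 0.405 (rho = 0.213) without the 4 arrays. KO and WT values did not overlap in either comparison for 5 genes, Gpat2, H2-DMa, Kcns2 and Zfp40 lower in both, and Ankrd35 in opposite directions (384 genes, 2.11%, did not overlap under inhibitor and 225, 1.24%, under vehicle, so nothing is read from the 5).

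Cartpt, Abi3bp, Agtr1a, Acvr1c and Onecut2 passed with the same sign under either treatment without the 4 arrays. Rgs4 (-1.20), Nr4a1 (1.17), Fosl2 (1.28), Vgf (0.79) and Egr1 (0.60) also had vehicle differences in their inhibitor direction in that fit. Of the early response genes called under inhibitor, Jun alone had the opposite sign under vehicle (0.13). Cartpt was 2.75 ± 0.32 under vehicle and 3.20 ± 0.36 under inhibitor (difference 0.45 ± 0.48, adjusted p = 0.866), and Acvr1c -1.54 ± 0.12 and -1.92 ± 0.14 (-0.38 ± 0.19, adjusted p = 0.505). Agtr1a was 1.43 ± 0.21 and 1.66 ± 0.24 (0.23 ± 0.32, adjusted p = 0.901). Nts, Hpcal4, Ciart, Irak3, Lgi2 and Snx31 differed with the treatment in the fit without the 4 arrays only. They were named for their inhibitor difference, which the difference of differences contains, so its p-values for them are a description. Nts was -0.49 ± 0.23 under vehicle (difference of differences -3.55 ± 0.34, adjusted p = 9.01e-05), Hpcal4 0.23 ± 0.09 (1.63 ± 0.14, adjusted p = 3.55e-05), Ciart -0.14 ± 0.11 (-1.39 ± 0.17, adjusted p = 0.000475) and Irak3 0.27 ± 0.14 (-1.97 ± 0.21, adjusted p = 0.000164). Over all genes 158 passed this test without the 4 arrays (0.868%). With all arrays none passed (0%, smallest adjusted p 0.115), with 1346 at an unadjusted p under 0.05 (7.4%), and the value for Nts was -3.44 ± 0.97 (adjusted p = 0.456). In KO vehicle 25, one of the arrays left out, Nts stood at 10.48, the highest KO vehicle value and within the range of WT inhibitor 10 to 12.

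**Figure D5:**
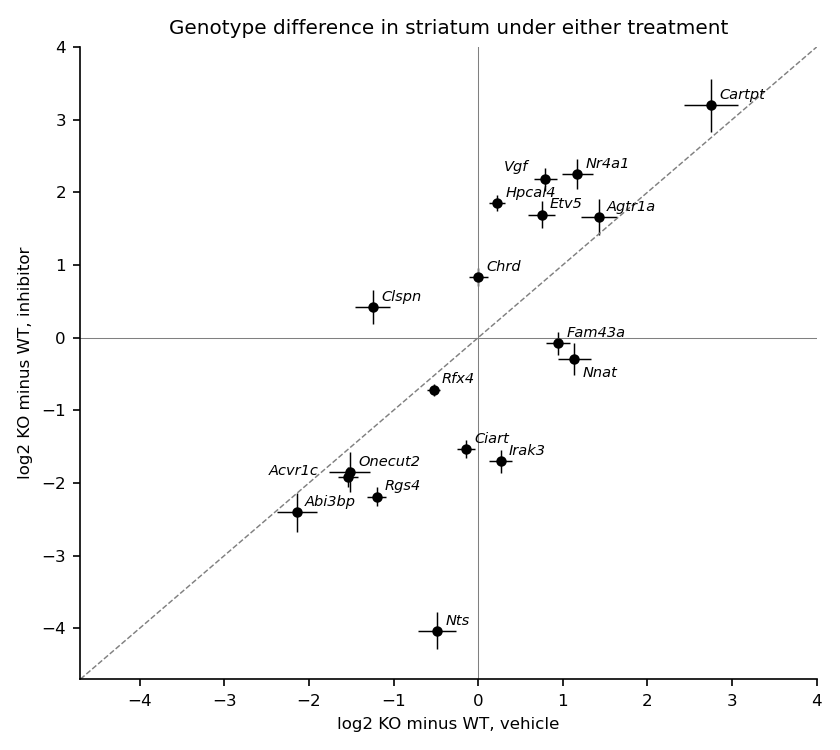
KO minus WT log2 difference with SE under inhibitor (y axis) against that under vehicle (x axis) for 18 named genes in striatum, without WT inhibitor 13 to 15 and KO vehicle 25. The dashed line marks equal differences: Cartpt (2.75 and 3.20) lies near it, Nts (-0.49 and -4.04) and Hpcal4 (0.23 and 1.85) far from it, and Nnat (1.13 and -0.29) is apart from 0 on the vehicle axis.

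Another group of genes had a larger difference under vehicle than under inhibitor. The genes were chosen for their vehicle difference, which is given as a description. The difference between treatments contains it, so its p-values for these genes are a description too. Nnat, which codes for neuronatin, was 1.24 ± 0.18 under vehicle, and under inhibitor it was at 10.69, 10.98, 11.09 and 10.78 in KO and 11.00 to 11.31 in WT (-0.27 ± 0.18, adjusted p = 0.615). Fam43a was 0.88 ± 0.13 and -0.03 ± 0.13, Coch 0.80 ± 0.15 and -0.11 ± 0.15, Slc7a8, an amino acid transporter, 0.71 ± 0.11 and 0.17 ± 0.11, and Clspn, a replication checkpoint adaptor, -1.35 ± 0.21 and 0.15 ± 0.21. Pdyn was 1.39 ± 0.19 under vehicle and kept its direction under inhibitor (0.46 ± 0.19). Without the 4 arrays the inhibitor difference was 0.31 ± 0.12 for Slc7a8, in the vehicle direction (adjusted p = 0.135), and 0.42 ± 0.23 for Clspn (adjusted p = 0.399). The difference between treatments for Nnat was -1.51 ± 0.26 (adjusted p = 0.115) with all arrays and -1.42 ± 0.29 (adjusted p = 0.0292) without the 4. For Fam43a it was -1.02 ± 0.21 (adjusted p = 0.028) and for Clspn 1.66 ± 0.31 (adjusted p = 0.0151) without the 4 arrays, and neither passed with all arrays (adjusted p = 0.187 for each). Coch (-0.86 ± 0.24, adjusted p = 0.131), Slc7a8 (-0.44 ± 0.15, adjusted p = 0.254) and Pdyn (-0.93 ± 0.24, adjusted p = 0.0892) did not pass in the fit without the 4 arrays. Of the 25 vehicle genes, 18 kept their sign under inhibitor, 5 of them at an unadjusted p under 0.05. The median size of the 25 went from 0.60 to 0.13 in the vehicle direction. The 25 were called under vehicle, which favours large vehicle sizes, so this fall is a description.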

How the data were processed

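The authors deposited log2 expression values for 45101 probe sets on 42 arrays, computed by RMA according to the submitters' processing notes, per the labels, and its background and quantile steps remove differences in overall signal between arrays. The array software version and whether all arrays were processed together are unstated in the sources used here. After 64 control probe sets, 34945 with a single listed gene were used, 932 listed several and 9160 none. Gene IDs of 34741 matched RefSeq GRCm38.p6, which also gave the promoter windows. Each of 18193 genes took its probe set with the highest mean.

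Genotypes were compared with limma 3.58.1 in R 4.3.3 (lmFit, eBayes, two-sided, Benjamini-Hochberg, threshold 0.05) over the 20 striatal arrays in 4 groups, the 22 hippocampal arrays, or all 42 for the region difference. Errors are standard errors, whose precision the number of arrays limits. The fit was tested on simulated data. The rule for names took Pde10a, the 12 largest rises and falls past the threshold or otherwise the 6 smallest p-values a side, and up to 3 genes per list, of 33 lists with 548 of 622 entries measured. It was also applied to the fit without the doubted arrays, a choice made after seeing the data, and 76 clone or predicted names among the 1187 genes there were left out. Other list members called there, and the striatal, glutamatergic and vehicle genes given with values, were named after their values were seen. Members and lists were chosen with earlier results of these data known. Python 3.11.15 and matplotlib 3.10.9 drew the figures.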

Additional observations from a re-analysis of the deposited data

Results flagged for a closer look

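Within the 4 KO or 6 WT arrays of inhibitor-treated striatum, 7 of 96 groups of values held an array far from the rest, where the gap to the nearest array exceeded 0.829 (4 arrays) or 0.625 (6 arrays) of the range. Chance gives about 1 in 20. WT 13 was the highest WT array for Chrd (6.94) and Kalrn (10.79). WT 14 was the lowest WT array for Rgs4 (10.64) and Strip2 (8.95). WT 11 was the highest WT array for Zfp516 (7.49) and for the mean of choroid plexus and ependyma markers (8.74). KO 35 was the highest KO array for the mean of blood cell markers (6.74). No gene's genotype difference changed between treatments past the threshold with all arrays.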

How the results depend on the processing

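With all arrays no gene passed in inhibitor-treated striatum, and the count stayed at 0 with only the 2 groups, the probe set mean, any probe set, the dim filter, either renormalization, the trended prior and either covariate. Array weights gave 1027 genes (hippocampus 658, vehicle 87, treatment difference 1). Leaving out single arrays gave 0 to 187 in this comparison, 8 to 82 under vehicle (25 with all), 0 to 1 for the treatment difference, 0 to 4 in hippocampus (1 with all) and 0 to 264 for the region difference (0 with all, 264 without WT striatum 14, 211 without KO striatum 35, 194 without WT striatum 13 and 45 without WT hippocampus 10). Without the arrays chosen by the chromosome 17 score, after seeing the data, the counts were 1187, 145, 158, 10 and 1090. In inhibitor-treated striatum the count was 627 with KO vehicle 25 kept, 601 with only the 7 arrays, 2327 with the glutamatergic covariate and 1817 with the Gapdh covariate. With only the 2 groups 9 genes passed under vehicle. The treatment difference had 4 genes with the probe set mean and 1 with any probe set. Hippocampus had 0 with only 2 groups, any probe set, the dim filter, quantile normalization again, the trended prior or the Gapdh covariate, 7 with the probe set mean and 2 with median centring.

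The array number as a replicate block gave 20 genes for the region difference (consensus correlation 0.00403). Correlations of same-numbered arrays ran from -0.38 to 0.31. Whether a shared number marks a single animal is not stated. These correlations cannot settle it, since both regions of an animal need not vary together. Within striatum no number is shared between groups.

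Of 2530 values for 102 genes, 12 changed sign. No gene had passed with all arrays, so no called value could reverse. Pde10a was 0.194 with the glutamatergic covariate, 0.0837 without the score's arrays (0.514 and 0.0434 with the glutamatergic and Gapdh covariates added) and -0.266 to 0.0353 leaving out single arrays. Avp was 0.033 without the score's arrays with the glutamatergic covariate, Ighm 0.57 at its best probe set and Alas2 0.058 with the glutamatergic covariate. Leaving out single arrays gave -0.031 to 1.15 for S100a8 and -0.00596 to 0.102 for Pmch. The cause of these changes was not tested. Of the other values, 450 passed the threshold where the value with all arrays did not.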
